A study of Mus musculus with 2 samples.

Results

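The Npy Tppp3 barcodes were 727 single-cell barcodes of a Drop-seq library from heart valves of C57BL/6J mice at postnatal day 30 (P30), out of 3512 barcodes in that library and 4473 in the series. They were chosen on the readout. A barcode qualified when the fibroblast matrix genes Col1a1, Col1a2, Col3a1 and Dcn held at least 1% of its UMIs (unique transcript tags), when it carried at least 2 UMIs of Npy, Tppp3 and Pamr1 in sum, when it carried at most 1 UMI of Rgs5 and Coch, and when it carried at most 2 UMIs of Igfbp3, Fgl2, Cxcl5, Bmx and Scn7a. They made up 20.7% of the library (95% exact Clopper-Pearson interval 19.4% to 22.1%) and 25.5% of its 2846 barcodes that met the matrix share. The other 2119 matrix barcodes of the same library were the comparison set. The second library, from C57BL/6J mice at postnatal day 7 (P7), held 961 barcodes, of which 184 met the same rule and 538 were its other matrix barcodes. No mutant allele or treatment is given for either library, the number of animals behind each is not given, and each age is 1 library. Differences are therefore given with intervals that cover counting error only, and no test between ages or between sets of barcodes was possible, since barcodes of 1 library are not replicates.

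Valve interstitial cells are the fibroblast-like cells inside the heart valve leaflets, where they secrete and remodel the collagen, proteoglycan and elastic layers that let the leaflet bend and bear load. Valves share matrix genes with tendon and cartilage, which are tissues under similar mechanical load. Npy encodes neuropeptide Y, a peptide best known from sympathetic neurons that is cut from a precursor, amidated and sensed by a family of G protein-coupled receptors. Tppp3 encodes a tubulin-binding protein that is used as a marker of tendon sheath cells, and Pamr1 encodes a secreted protein with a serine protease-like domain. In the mm10 annotation (GENCODE M21) Npy lies at chr6:49822710-49829507 on the plus strand, Tppp3 at chr8:105467493-105471526 on the minus strand and Pamr1 at chr2:102550012-102643041 on the plus strand, all 3 protein coding.

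The rule asks for fibroblast matrix genes, so the interstitial markers describe the members and do not test the label of interstitial cells. All 20 interstitial markers were detected in the Npy Tppp3 barcodes. Their summed level was 31767 UMIs per 1000000 UMIs (CPM) against 25491 CPM in the other matrix barcodes. It was 10982 CPM in 211 barcodes rich in endothelial markers. Those 211 lay under the 1% matrix share and had at least 5 endothelial and under 5 macrophage UMIs. A lower interstitial sum there was thus in part built in. Not every interstitial marker was higher than in the other matrix barcodes, since Lum stood at 1352 against 1980 CPM and Pdgfra at 26.1 against 85.0 CPM. Fbln2, Mmp2, Mfap4, Thy1 and Postn were also lower, and Sparc (11713 against 6871 CPM) gave the largest part of the higher sum. In the endothelial-rich barcodes, Pdgfra (94.3 CPM), Cdh11 (795 against 239 CPM in the members), Thy1 and Vim were higher than in the members. The 15 macrophage markers summed to 59.8 CPM in the Npy Tppp3 barcodes against 226 CPM in the others, with Fcgr3 at 0. The 15 endothelial markers summed to 172 against 215 CPM, with Cldn5 and Robo4 at 0. The 16 sympathetic neuron markers summed to 103 against 66.1 CPM, of which Uchl1 gave 76.3 CPM, while Th, Dbh, Chga, Chgb and Scg2 were at 0 in the Npy Tppp3 barcodes. The 14 Schwann and glial markers (735 against 542 CPM) came mostly from Pmp22 (433 CPM), with Sox10 at 0. The 14 mural markers gave 552 against 450 CPM. The 10 erythroid markers gave 3305 against 3038 CPM. Most of this came from haemoglobin genes, RNA that these cells do not make, which so reached both sets at a like level.

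The median depth was 2933 UMIs per Npy Tppp3 barcode (lowest 720, highest 19235) and 2377 in the other matrix barcodes. No barcode sequence occurred in both libraries. No doublet caller was run. By the marker lists above, 8.39% of members carried at least 2 endothelial UMIs, 1.93% macrophage, 54.1% Schwann and glial and 36.0% mural UMIs. In the other matrix barcodes these shares were 9.44%, 2.36%, 37.8% and 26.0%. A call below means at least 2-fold in summed CPM with the interval of the ratio clear of equal levels, among genes with at least 20 CPM and 10 UMIs in the higher set.

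The genes of the rule set the membership, so their levels are a description. Npy stood at 892 CPM in the Npy Tppp3 barcodes and 120 CPM in the others, Pamr1 at 494 and 90.7 CPM, and Tppp3 at 311 and 98.2 CPM. With every barcode thinned to 500 UMIs, Npy was found in 28.2% of the members and Tppp3 in 15.1%. In the endothelial-rich barcodes the same shares were 0.75% for Npy but 20.7% for Tppp3 (60.7% without thinning). Tppp3 was thus at its highest outside the matrix barcodes, and of the 3 genes it separated the members least. Over single members Npy ran from 0 to 61 UMIs with a median of 1, Tppp3 from 0 to 12 and Pamr1 from 0 to 11, and 110 of the 727 carried all 3 genes. In all matrix barcodes at P30, Pamr1 stood at 156 CPM where Npy had no UMI and at 404 CPM (373 to 438) where it had 2 or more, and Tppp3 at 134 and 264 CPM.

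RefSeq promoter sequences (GRCm38.p6) were matched for 18 of the 28 genes made of these 3 and the 25 genes named as higher below. Shown are the 250 bases before the RefSeq start of Npy, the gene that gives the set its name, of Thbs4 and Chad, which are among the 4 genes named with the clearest ratio, and of Cyp26a1, the named enzyme that degrades retinoic acid. Capitals mark ATAAA, part of a TATA-box-like motif, in the first 3 (chr6:49822460-49822709 on the plus strand, chr13:92794819-92795068 on the minus strand and chr11:94564797-94565046 on the plus strand). In Cyp26a1 (chr19:37697558-37697807 on the plus strand) they mark a direct repeat of TGAACT with 5 bases between, the arrangement of a retinoic acid response element.
Npy: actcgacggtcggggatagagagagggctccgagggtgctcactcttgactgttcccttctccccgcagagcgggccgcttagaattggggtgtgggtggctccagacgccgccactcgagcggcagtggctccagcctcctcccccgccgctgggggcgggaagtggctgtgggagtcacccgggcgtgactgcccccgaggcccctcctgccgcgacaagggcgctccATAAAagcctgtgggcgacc
Thbs4: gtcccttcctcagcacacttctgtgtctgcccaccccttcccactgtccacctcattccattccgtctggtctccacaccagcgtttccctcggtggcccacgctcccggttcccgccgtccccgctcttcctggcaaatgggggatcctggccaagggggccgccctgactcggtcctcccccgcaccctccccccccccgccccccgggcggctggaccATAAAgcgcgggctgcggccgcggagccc
Chad: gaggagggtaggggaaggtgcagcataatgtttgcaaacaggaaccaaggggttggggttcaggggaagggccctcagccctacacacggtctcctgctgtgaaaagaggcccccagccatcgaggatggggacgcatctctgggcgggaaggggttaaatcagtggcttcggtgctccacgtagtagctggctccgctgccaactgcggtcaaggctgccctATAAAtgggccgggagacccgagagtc
Cyp26a1: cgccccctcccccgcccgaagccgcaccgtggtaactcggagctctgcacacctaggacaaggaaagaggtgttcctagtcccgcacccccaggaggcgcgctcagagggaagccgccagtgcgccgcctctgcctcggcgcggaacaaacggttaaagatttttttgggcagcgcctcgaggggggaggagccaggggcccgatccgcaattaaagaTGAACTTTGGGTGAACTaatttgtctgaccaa
The letters ATAAA were searched on the sense strand in the last 50 bases before the start. They were present in a promoter of 4 of the 18 matched genes (Chad, Ltbp2, Npy and Thbs4) and in 6.57% of all 32851 promoters of the table. The first count is of genes and the second share is of promoters, so they are not of the same unit. The repeat TGAACTNNNNNTGAACT, searched on both strands over the 250 bases, was present in Cyp26a1 alone of the 18 and in 7 promoters of the whole table (0.0213%). These matches describe the letters only, and no binding was measured.

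Against the other matrix barcodes, the Npy Tppp3 barcodes had 87 genes called higher out of 6136 measured (1.42%) and 131 called lower (2.13%), and the median log2 ratio of all measured genes was -0.03. The higher genes were led by matrix genes known from tendon and cartilage. Of 18 measured genes of a tendon, cartilage and bone list, 7 were called higher and none lower. The median log2 ratio of the list was 0.78, and 0.37 against only the 1218 other barcodes that passed both exclusions, where Fmod, Comp and Cilp2 of the 7 fell under 2-fold. Part of both counts came from the exclusions that the comparison set did not have to pass. Against those 1218 barcodes, 50 of 6079 genes were higher (0.823%) and 67 lower (1.1%), of which 44 and 61 were among the first calls. Barcodes that failed an exclusion thus carried part of the contrast. For the 25 genes named as higher and the 15 named as lower, ratios against the 1218 are given below where they fall under 2-fold. For the other called genes below no such ratio is given, and they may fall under 2-fold there.

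**Figure D1:**
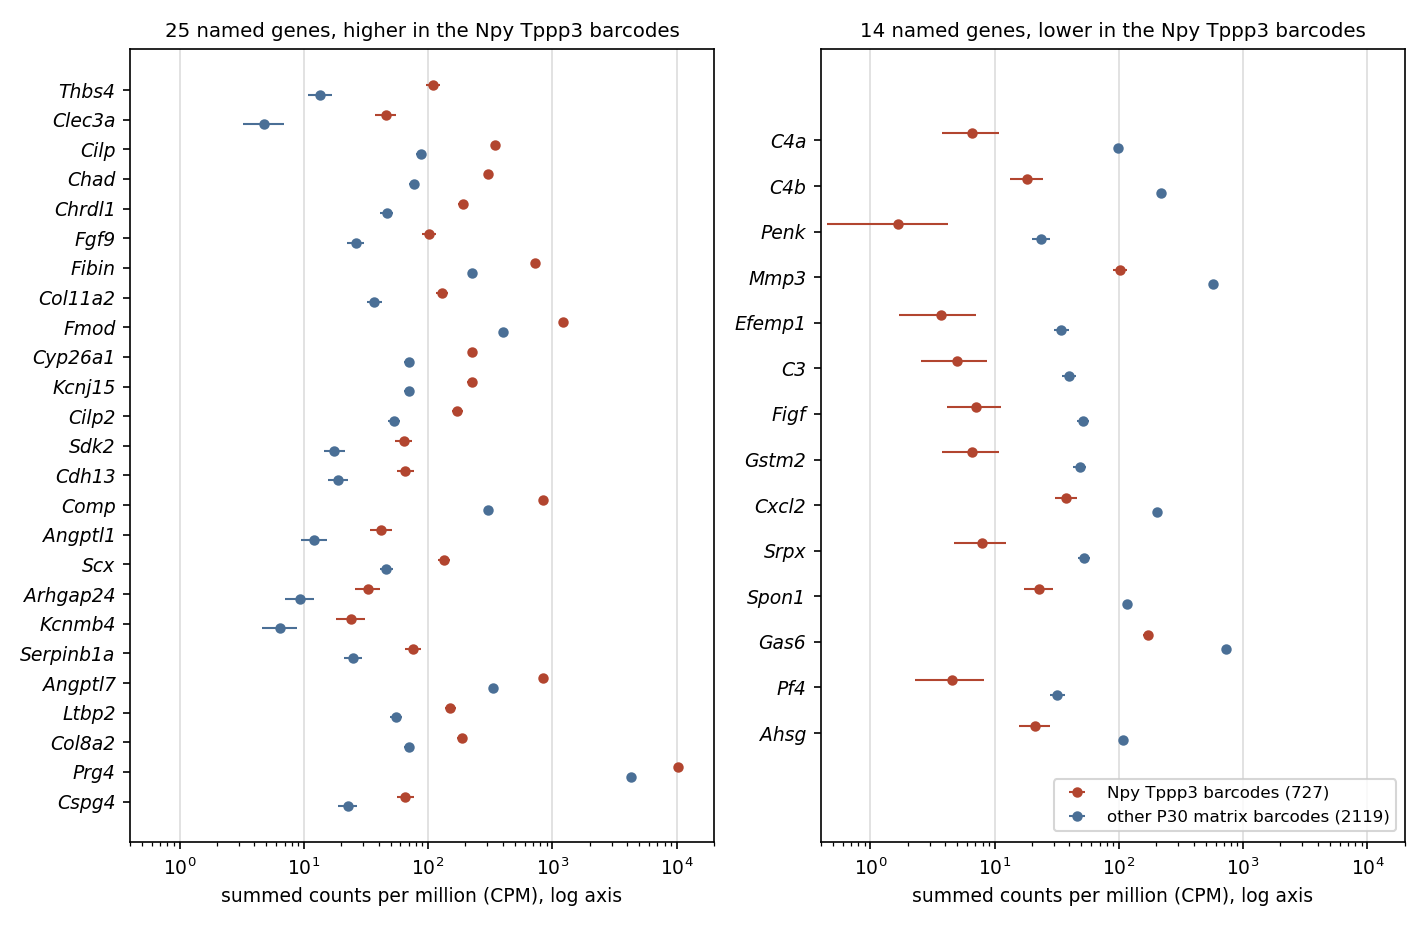
Summed CPM (log axis) of the 25 genes named as higher and 14 of the 15 named as lower in the 727 Npy Tppp3 barcodes (red) and the 2119 other P30 matrix barcodes (blue), with 95% Poisson intervals that cover counting error only. The ratio runs from 9.48 times for Clec3a to 0.0668 times for C4a, and Prg4 is the most abundant gene shown at 10263 against 4329 CPM.

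Scx encodes the basic helix-loop-helix factor that marks tendon progenitors. It had 325 UMIs in 27.4% of the members, 135 CPM (121 to 150) against 46.0 CPM (40.8 to 51.8) in the others, a log2 ratio of 1.55 (1.32 to 1.79). The chondrogenic factor Sox9 stood at 456 against 426 CPM, a log2 ratio of 0.10, and was not called. Sox6 (log2 ratio 0.40) was not called either.

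The tendon and cartilage glycoproteins were the clearest genes of the set. Thbs4, the matricellular thrombospondin of tendon, had 265 UMIs in 107 of the 727 members, 110 CPM (97.1 to 124) against 13.6 CPM (10.8 to 16.9), a log2 ratio of 3.01 (2.65 to 3.39). Clec3a, a lectin of cartilage, had 110 UMIs in 60 members, 45.6 against 4.82 CPM, a log2 ratio of 3.24 (2.64 to 3.89). Thinned to 500 UMIs, Thbs4 was found in 4.31% of the members, 0.512% of the others and 0% of the endothelial-rich barcodes. The unthinned shares of Thbs4 were 14.7%, 2.08% and 0%. Most members thus held no UMI of either gene, and the difference lies in a minority of them at this depth.

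Cilp, the cartilage intermediate layer protein, stood at 346 CPM (323 to 370) against 87.4 CPM (80.1 to 95.2), and its relative Cilp2 at 172 against 53.0 CPM. Chad, the collagen-binding chondroadherin, stood at 306 CPM (284 to 329) against 76.7 CPM (69.9 to 84.1). Comp, a pentameric matrix protein of cartilage and tendon, stood at 838 CPM (802 to 876) against 303 CPM (289 to 317), with a single-barcode range of 0 to 32 UMIs and a median of 1. These 4 genes had log2 ratios of 1.99, 1.70, 1.99 and 1.47. Against the barcodes that passed both exclusions the log2 ratios of Comp (0.77) and Cilp2 (0.96) were under 2-fold, and those of Cilp (1.42) and Chad (1.01) were not.

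Other genes of the list were not called. Cytl1, Ucma, Col9a1, Matn4 and Hapln1 were 1.56 to 1.92 times higher, under the 2-fold minimum. The tendon genes Tnmd, with 4 UMIs in the members, and Mkx, at 7.47 CPM, did not reach the count minimum. The osteocalcin genes Bglap (44.4 against 43.9 CPM) and Bglap2 (51.0 against 57.6 CPM) did not differ beyond counting error. Mgp, the inhibitor of calcification that is among the most abundant transcripts of these cells, was slightly lower at 14568 against 16442 CPM (log2 ratio -0.17, interval -0.19 to -0.16).

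Per barcode, the list without Mgp had a median of 31.5 UMIs per 10000 in the Npy Tppp3 barcodes, with quartiles of 14.0 and 61.6, against 11.3 in the others, with quartiles of 4.56 and 25.5. At least 3 UMIs of these genes were present in 82.8% of the members and 53.9% of the others, shares that were not thinned to a like depth. In the 1218 other barcodes that passed both exclusions the median was 16.2 UMIs per 10000 and this share 56.6%. The quartile ranges of the members and the others overlap.

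Of 22 measured proteoglycan genes, 6 were higher (Fmod, Prelp, Omd, Aspn, Prg4 and Gpc1) and Gpc6 was lower. The collagen-binding members of the group did not all go one way, as Lum was at 1352 against 1980 CPM. Fmod, a small leucine-rich proteoglycan that shapes collagen fibrils, was found in 71.7% of the members and reached 41 UMIs in a single one. It stood at 1215 CPM (1172 to 1260) against 400 CPM (385 to 417), a log2 ratio of 1.60 (1.52 to 1.68), which was 0.99 against the barcodes that passed both exclusions. Prelp (1838 against 906 CPM), Aspn (451 against 216 CPM) and Omd (30.7 against 15.1 CPM) belong to the same family and were about 2-fold higher.

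Prg4 encodes lubricin, the lubricating mucin-like proteoglycan of joint surfaces. It was the most abundant called gene, with 24734 UMIs in 93.4% of the members, a median of 21 and a highest value of 324 UMIs per barcode. Its level was 10263 CPM (10136 to 10392) against 4329 CPM (4277 to 4382), a log2 ratio of 1.25 (1.22 to 1.27). Prg4 was also common in the other matrix barcodes (49.3% at 500 UMIs, against 81.8% of the members and 6.21% of the endothelial-rich barcodes), so it graded the members and did not define them. Against the barcodes that passed both exclusions its log2 ratio was 0.88.

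Of 6 measured fibrillar collagen genes outside the rule, Col11a1 (105 against 43.5 CPM) and Col11a2 (130 against 37.0 CPM), the chains of the minor collagen XI of cartilage fibrils, were higher and none was lower. The network-forming Col8a2 was higher at 189 against 70.1 CPM, with a log2 ratio of 0.78 against the barcodes that passed both exclusions, and Col14a1, a fibril-associated collagen, was lower at 58.5 against 134 CPM. Among elastic fibre genes Ltbp2 (log2 ratio 1.46) and Mfap5 (1.24) were higher and Efemp1, fibulin 3, was lower (-3.21), of 15 measured. Of the enzymes that process collagen, Loxl2, a crosslinking oxidase, stood at 900 against 370 CPM, and P4ha2, a proline hydroxylase subunit, at 52.7 against 21.4 CPM. The matrix binder Abi3bp stood at 1472 against 635 CPM.

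Secreted signals and their inhibitors formed the next group. Chrdl1, a secreted antagonist of bone morphogenetic proteins, stood at 190 CPM (173 to 208) against 46.7 CPM (41.4 to 52.5), a log2 ratio of 2.03, and was the only gene called higher of 22 measured TGF beta and BMP genes. Fgf9, a growth factor ligand, stood at 102 CPM (89.7 to 116) against 26.2 CPM (22.3 to 30.7), a log2 ratio of 1.96. The receptor gene Fgfr1 stood at 312 against 321 CPM, and Fgfr3, which had 16 UMIs in the members, at 6.64 against 7.14 CPM, so neither receptor differed beyond counting error. Angptl7 (846 against 335 CPM) and Angptl1 (41.9 against 12.1 CPM), both angiopoietin-like secreted proteins, were higher, with Angptl7 at a log2 ratio of 0.78 against the barcodes that passed both exclusions. Fibin, a small secreted protein first described in fin buds, stood at 726 CPM (692 to 761) against 226 CPM (214 to 239). Sfrp2, a secreted modulator of Wnt signals, was higher at 425 against 187 CPM, and its relative Sfrp1 was lower at 174 against 468 CPM.

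Cyp26a1, whose promoter is printed above, was found in 32.7% of the members and stood at 227 CPM (209 to 247) against 70.1 CPM (63.6 to 77.1), a log2 ratio of 1.70. Its log2 ratio was 0.90 against the barcodes that passed both exclusions. Cyp26a1 was the only gene called of 13 measured retinoid and Hedgehog genes. Its relative Cyp26b1 stood at 19.5 against 4.15 CPM (47 and 25 UMIs), just under the 20 CPM minimum, so it was not among the 13. Cyp26b1 stood at 236 CPM in the endothelial-rich barcodes. At P7 it was called higher, at 30.6 against 9.08 CPM. Aldh1a1, which makes retinoic acid, stood at 342 against 299 CPM, a 1.15-fold ratio, and the receptor gene Rarb at 20.7 against 22.4 CPM. Potassium channel genes were also named. Kcnj15, an inward rectifier potassium channel, had 543 UMIs and stood at 225 against 70.3 CPM. Kcnmb4, an accessory subunit of the calcium-activated potassium channel, had 58 UMIs and stood at 24.1 against 6.48 CPM. The adhesion genes Sdk2 (63.5 against 17.6 CPM) and Cdh13 (65.6 against 18.9 CPM), the proteoglycan Cspg4 (65.6 against 22.6 CPM), Serpinb1a (75.9 against 25.1 CPM) and Arhgap24 (32.8 against 9.30 CPM) completed the 25 named genes. Cspg4 had a log2 ratio of 0.93 against the barcodes that passed both exclusions. Cdh13 was found in 23.2% of endothelial-rich barcodes at 500 UMIs, above its 2.74% in the members.

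**Figure D2:**
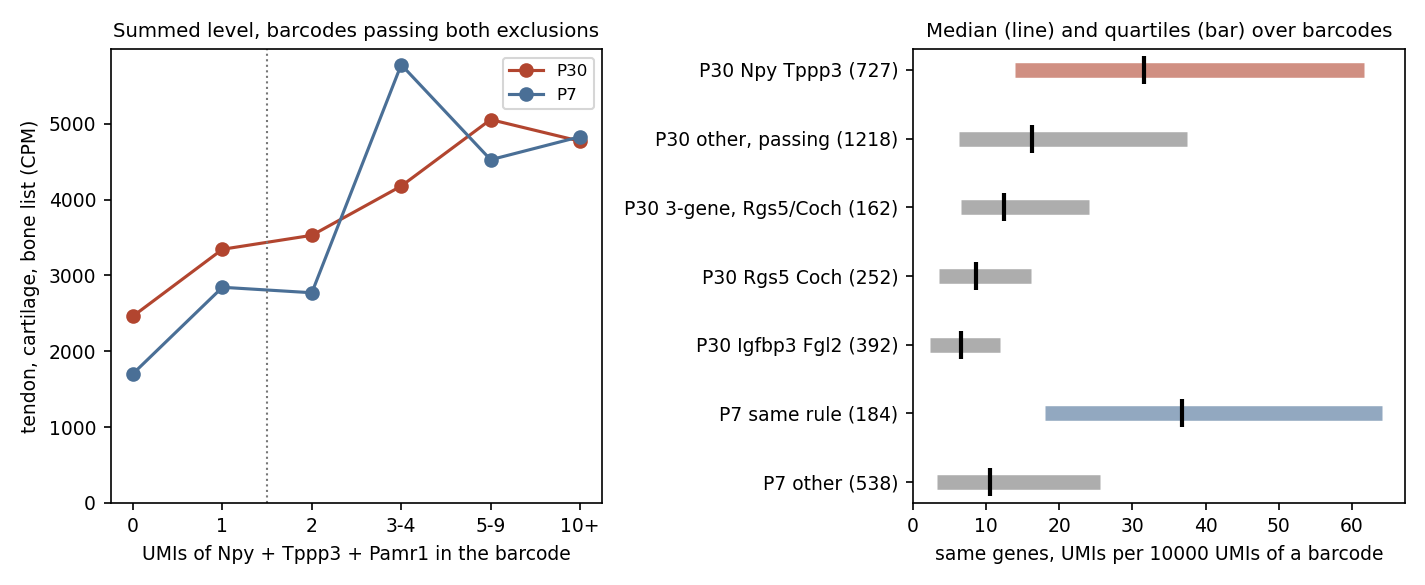
Left, summed CPM of the tendon, cartilage and bone list without Mgp against the UMIs of Npy, Tppp3 and Pamr1 in a barcode, in barcodes that passed both exclusions (red P30, blue P7), where the dotted line marks the membership threshold. Right, median and quartiles over barcodes of the same genes per 10000 UMIs in each set, with a P30 median of 31.5 in the members and 6.56 in the Igfbp3 Fgl2 barcodes.

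The list was higher in barcodes with more UMIs of the 3 genes, and so was depth, whose median went from 1845 UMIs per barcode at 0 UMIs of the 3 genes to 2214 at 1, 2504.5 at 2 and 4035 at 10 or more. The part of depth in these steps was not tested. Among P30 barcodes that passed both exclusions, the tendon, cartilage and bone list without Mgp summed to 2464 CPM at 0 UMIs of the 3 genes and 3346 CPM at 1 UMI, just outside. It summed to 3530 CPM at 2 UMIs, just inside, 4179 CPM at 3 to 4, 5057 CPM at 5 to 9 and 4771 CPM at 10 or more. Thbs4 stood at 33.8 CPM (23.7 to 46.9) just outside and 62.7 CPM (44.8 to 85.3) just inside, Fmod at 807 and 915 CPM, and Prg4 at 6375 and 7164 CPM. With Mgp included the order turned, from 22578 CPM at 0 UMIs to 14648 CPM at 10 or more. The 162 barcodes that met the 3-gene minimum but carried over 1 UMI of Rgs5 and Coch had 1770 CPM of the list without Mgp, below the members but above the 1239 CPM of the 252 Rgs5 Coch barcodes with under 2 UMIs of the 3 genes.

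The members were not alike, and the gene that admitted a barcode went with its matrix genes. The 67 members that carried only Tppp3 held 1428 CPM of the list without Mgp, below the 1959 CPM of the other matrix barcodes. The 128 members with only Pamr1 held 5084 CPM, the 65 with only Npy 3069 CPM, the 153 with Npy and Pamr1 6103 CPM and the 110 with all 3 genes 4675 CPM. In the members with only Tppp3, Cilp and Thbs4 had 1 UMI each (4.92 CPM, 0.12 to 27.4). Gas6 was at 291 CPM (221 to 375) there, between the 172 CPM of the members as a whole and the 733 CPM of the other matrix barcodes. By the list, Cilp and Thbs4, the members admitted through Tppp3 alone did not look like the rest of the set.

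Prg4 and the collagen-binding genes were highest in different members. Prg4 stood at 13262 CPM (12706 to 13837) in members with only Npy and at 13288 CPM with Npy and Pamr1, but at 8375 CPM (8091 to 8667) with only Pamr1 and 4368 CPM with only Tppp3. Fmod stood at 733 CPM (607 to 878) with only Npy and 1606 CPM (1483 to 1737) with only Pamr1. Angptl7 stood at 416 CPM (323 to 529) with only Npy and 1330 CPM (1219 to 1450) with only Pamr1, and Comp at 534 and 1095 CPM. Chad (591 CPM) and Cilp (548 CPM) had their highest values in the members with Npy and Pamr1, and Clec3a was alike there (98.4 CPM, 72.6 to 131) and with all 3 genes (89.4 CPM, 64.2 to 121). Among the members, Prg4 was thus higher with only Npy than with only Pamr1, and Fmod, Comp and Angptl7 were lower. The members were split by the same genes that admitted them, and this selection shapes the contrast. Whether these genes go with Npy or Pamr1 in all matrix barcodes of the library was not tested. With Tppp3 left out of the rule, 79 of the 87 higher genes were called again.

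**Figure D3:**
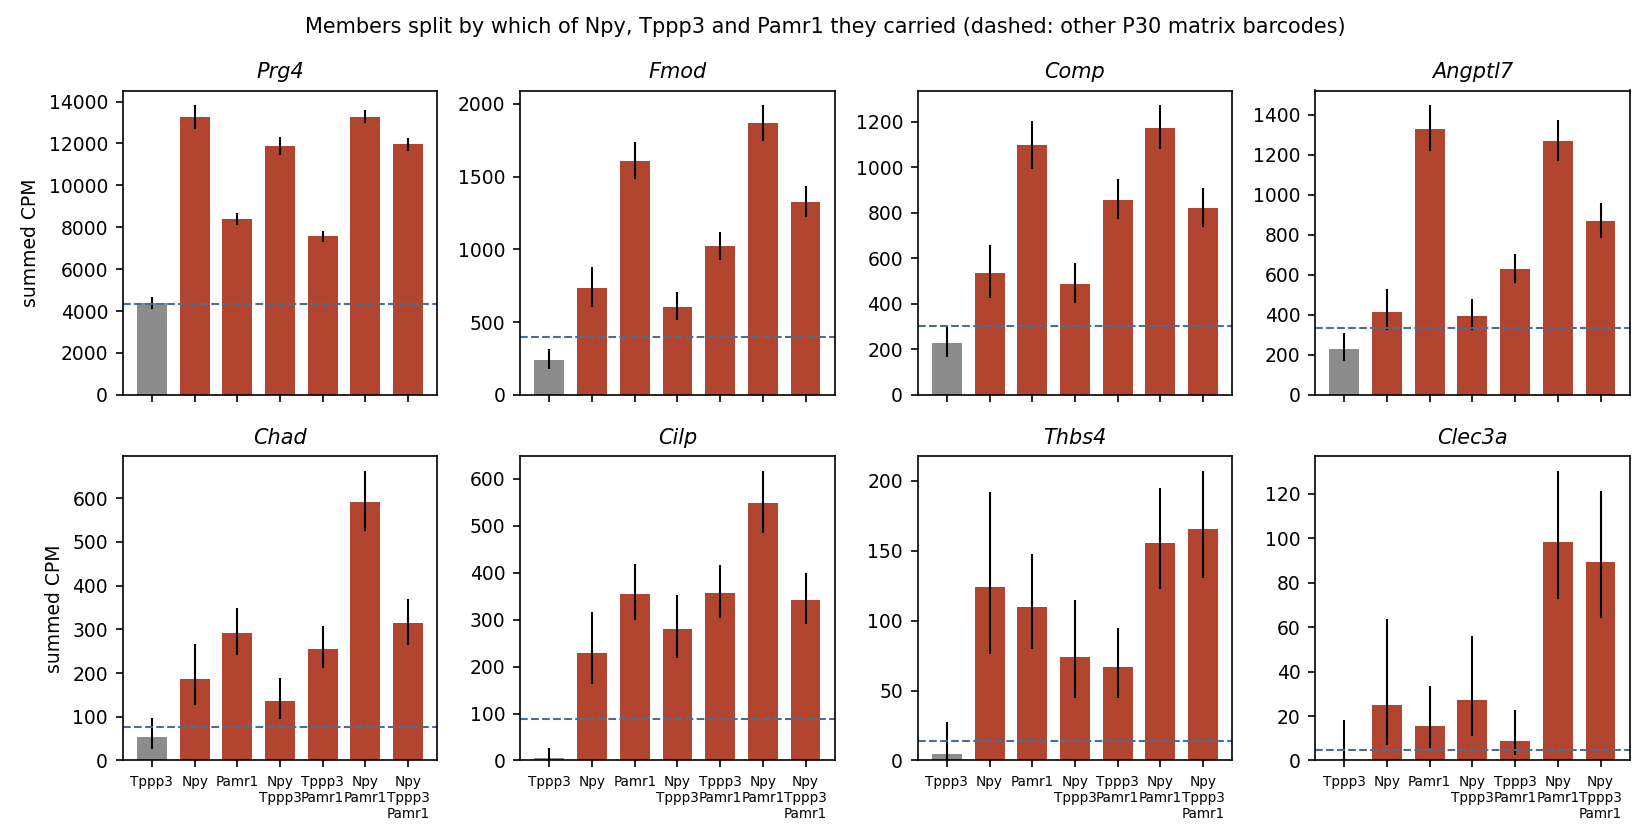
Summed CPM of 8 named genes in the members split by which of Npy, Tppp3 and Pamr1 they carried, with 95% Poisson intervals, and the level in the 2119 other matrix barcodes as a dashed line. Members with only Tppp3 (grey, 67 barcodes) lie at or below the dashed line for all 8 genes within their intervals, and Prg4 is highest where Npy was carried.

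The genes lower in the Npy Tppp3 barcodes were led by complement and chemokine genes. Of 14 measured complement genes, 11 were called lower and none higher. Their list had a median log2 ratio of -1.69, and -1.03 against the barcodes that passed both exclusions. The comparison set holds the barcodes that the rule keeps out for Igfbp3, Fgl2 and the genes beside them, and the members do not. C4b, a component of the classical pathway, had 44 UMIs in 4.26% of members, 18.3 CPM (13.3 to 24.5) against 218 CPM (206 to 230), a log2 ratio of -3.58 (-4.04 to -3.14). C4a stood at 6.64 against 99.3 CPM. C3, the central component, stood at 4.98 CPM (2.57 to 8.70) against 39.7 CPM (34.8 to 45.1), and Serping1, the inhibitor of the first component, at 120 against 361 CPM. C4a and C4b are near-identical copies, as are C1ra and C1rb, and reads may be split between the copies.

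Of 16 measured chemokine and cytokine genes, 8 were lower and none higher. Cxcl1 and Cxcl2, which attract neutrophils, stood at 339 against 1053 CPM and at 37.8 against 201 CPM, and Ccl19 at 30.7 against 92.2 CPM. The macrophage genes C1qa, C1qb, C1qc and Pf4 were lower too (Pf4 at 4.56 against 32.1 CPM), beside the lower macrophage marker sum given above, and their part in these list counts was not tested. The median log2 ratio of the chemokine and cytokine list was -1.03, and -0.53 against the barcodes that passed both exclusions. The interferon and MHC class I list had 3 of 30 genes lower (H2-Q7, Psmb8 and Psmb9) and none higher.

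The other named lower genes came from several groups. Mmp3, a matrix protease, stood at 103 CPM (90.5 to 117) against 577 CPM (558 to 597). Gas6, a ligand of TAM receptors, stood at 172 against 733 CPM, and Figf, which encodes VEGF-D, at 7.05 against 51.3 CPM. Penk, the enkephalin precursor and the other neuropeptide gene that reached the minimum, had 4 UMIs at 1.66 CPM (0.45 to 4.25) against 23.6 CPM (19.9 to 27.8). Of 27 measured growth factor genes 7 were lower, among them Ptn (268 against 943 CPM) and Pdgfra (26.1 against 85.0 CPM), and 3 were higher. Against the barcodes that passed both exclusions, Mmp3 (log2 ratio -0.74) was no longer at least 2-fold lower, and Efemp1, C3, Figf and Penk fell below the count minimum.

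**Figure D4:**
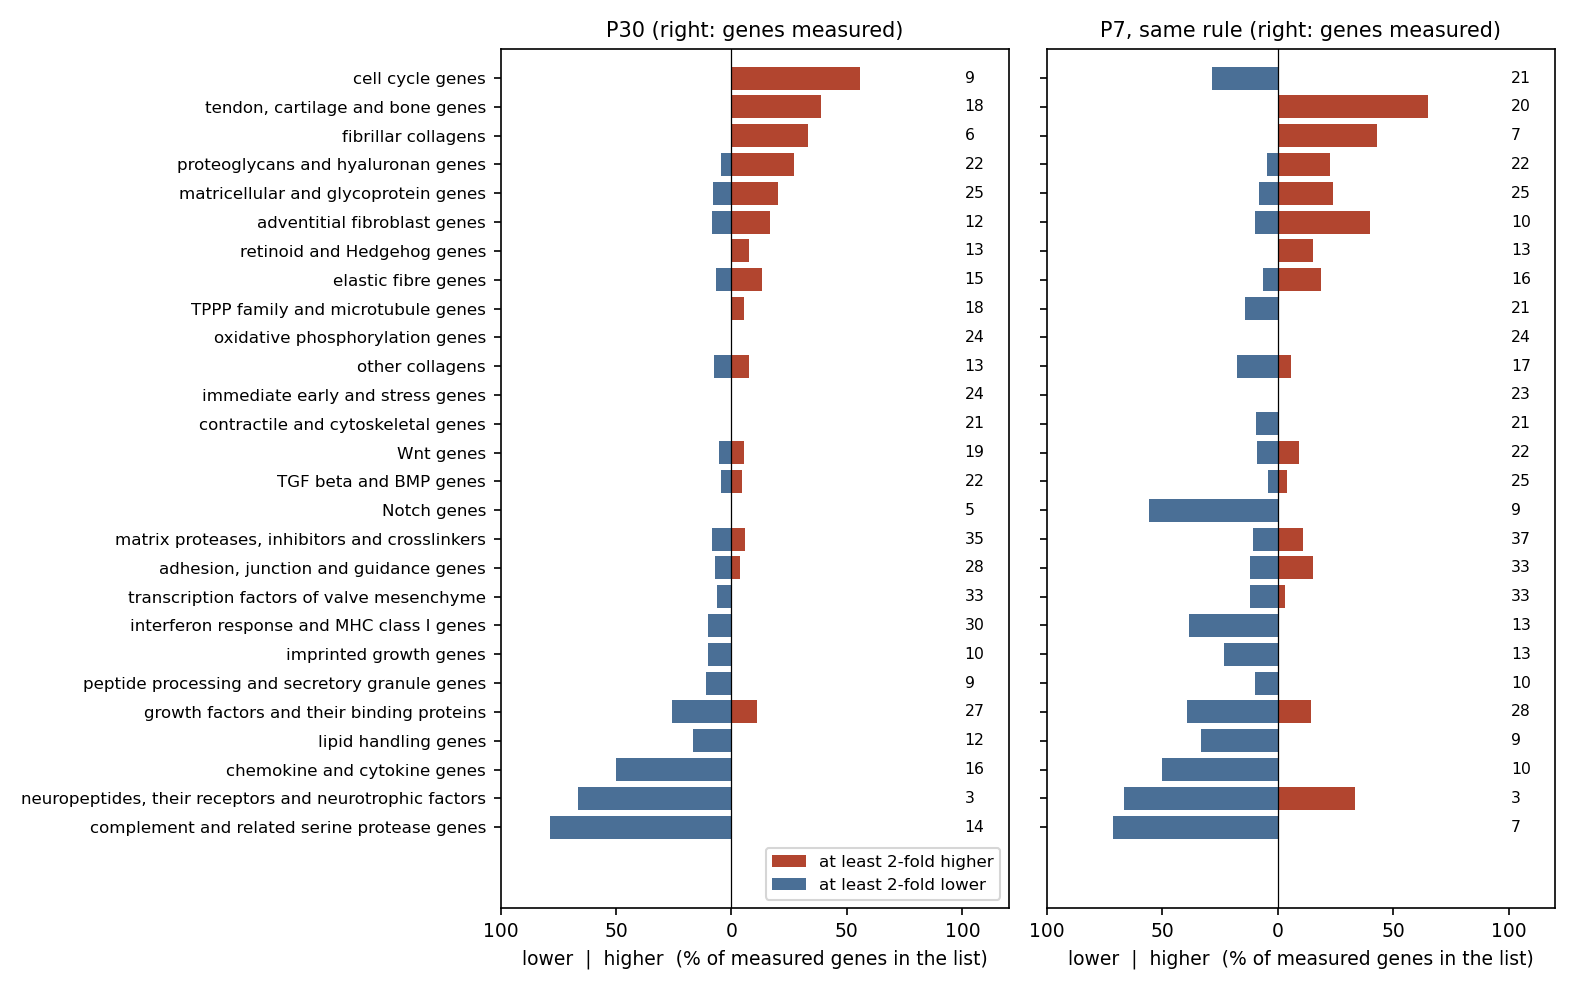
Share of the measured genes of each of 27 lists that were at least 2-fold higher (red, to the right) or lower (blue, to the left) in the Npy Tppp3 barcodes at P30 (left panel) and in the P7 barcodes of the same rule (right panel), each against the other matrix barcodes of its library, with the number of measured genes at the right. The tendon, cartilage and bone list leans to higher in both libraries (7 of 18 and 13 of 20), complement leans to lower in both (11 of 14 and 5 of 7), and the cell cycle list leans in opposite directions (5 of 9 higher and 6 of 21 lower).

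The genes that make and sense the peptide were mixed. Of 36 listed genes of neuropeptides, their receptors and neurotrophic factors, only 3 reached the minimum, of which Penk and Gfra1 were lower. Of 9 measured peptide processing and secretory granule genes, Anpep was lower, none was higher and the median log2 ratio was 0.02. The receptor Npy1r had 3 UMIs in all 727 members and 18 in the whole library. Npy2r and Npy4r had 0 in the members, with an upper interval bound of 1.53 CPM each, and Npy6r had 1. Of the convertases that cut the precursor, Pcsk1 had 0 UMIs and Pcsk2 had 4, and the general convertase Furin stood at 27.8 CPM. The 2 enzymes that finish the peptide were present, as Cpe, which trims the basic residues, stood at 292 CPM (271 to 315) against 289 CPM (276 to 303), and Pam, which amidates the end, at 1280 CPM (1235 to 1326) against 847 CPM (824 to 871). Dpp4, which shortens the mature peptide and so changes its receptor preference, had 3 UMIs in the members. Both were also found outside the matrix barcodes, with Cpe at 507 CPM and Pam at 213 CPM in the endothelial-rich barcodes.

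The microtubule genes around Tppp3 hardly moved. Of 18 measured genes of that list Stmn1 alone was called higher (65.6 against 27.2 CPM), and the relative Tppp had 7 UMIs in the members, 2.90 against 3.82 CPM in the others and 149 CPM in the endothelial-rich barcodes. Oxidative phosphorylation genes (24 measured), immediate early and stress genes (24) and contractile genes (21) had no gene called in either direction.

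The cell cycle list had 5 of 9 measured genes higher, and those UMIs came from few members. After their values were seen, barcodes with at least 10 UMIs of the list were counted, and 14 of the 727 members were such barcodes (1.93%, 1.06% to 3.21%) against 30 of 2119 others (1.42%, 0.957% to 2.01%). These 14 held 57.9% of the members' cell cycle UMIs. Without such barcodes the list stood at 429 CPM in the members and 438 CPM in the others, a fall that is in part built in, since the barcodes were picked by the same UMIs. Stmn1 had 158 UMIs in the members and 24 without the 14 barcodes, and Mki67 129 and 10.

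For comparison, 2 other sets were taken from matrix barcodes with under 2 UMIs of the 3 genes. They were 252 barcodes with over 1 UMI of Rgs5 and Coch and 392 with over 2 UMIs of the Igfbp3 group, each within the other exclusion. Against the Rgs5 Coch barcodes 203 of 6351 genes were higher (3.2%) and 276 lower (4.35%), and against the Igfbp3 Fgl2 barcodes 291 of 6334 were higher (4.59%) and 376 lower (5.94%). Both contrasts share the 727 members, so they are not independent of each other.

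The tendon-type genes set the members apart from both sets by more than from the matrix barcodes at large. Of the 18 measured list genes, 11 were higher against the Rgs5 Coch barcodes and 15 against the Igfbp3 Fgl2 barcodes, with median log2 ratios of 2.24 and 2.41. Thbs4, at 110 CPM in the members, had 1 UMI in each of the 2 sets (1.37 and 0.76 CPM), with log2 ratios of 6.33 (3.84 to 11.6) and 7.18 (4.69 to 12.5). Clec3a had no UMI in either, and against a floor of 3 UMIs in each set its ratio was 11.1-fold and 20.1-fold. These floor ratios are not lower bounds, as the lower log2 bound against the Rgs5 Coch barcodes was 3.15. Chad stood at 306 CPM in the members, with 8 UMIs in the Rgs5 Coch and 14 in the Igfbp3 Fgl2 barcodes (27.9-fold and 28.8-fold), and Cilp at 346 CPM against 30.1 and 15.1 CPM. Scx, Fmod, Comp and Cilp2 were called higher in both contrasts.

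The lower genes differed between the 2 contrasts. Against the Rgs5 Coch barcodes they were led by Clca2 (3.32 against 45.2 CPM), the MHC class II genes H2-Ab1 (46.1 against 338 CPM) and Cd74 (22.8 against 145 CPM), the adhesion gene Sele (16.2 against 108 CPM) and the transcription regulator Id4 (31.1 against 210 CPM). Against the Igfbp3 Fgl2 barcodes they were led by C4b (18.3 against 559 CPM), Mmp3 (103 against 1687 CPM), Il6 with 1 UMI in the members (log2 ratio -6.29, interval -11.6 to -3.74) and Ch25h, an enzyme of oxysterol synthesis (0.83 against 45.4 CPM). Complement was lower in 4 of 8 measured genes in the first contrast and 12 of 14 in the second, and chemokines and cytokines in 8 of 15 and 12 of 18.

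The P7 library was not used to choose the P30 members, so the same rule applied there gives the same measure in another library, with 184 barcodes against 538. In that contrast 158 of 7215 measured genes were called higher (2.19%) and 415 lower (5.75%). Of the 87 genes higher at P30, 74 were measured at P7, and 44 of these (59.5%) were higher there and 11 lower, all 11 of them cell division genes. At 1.5-fold 55 were higher, where 4.78% of all measured genes were. Of the 131 lower at P30, 92 were measured and 68 (73.9%) were lower, with Ackr4 alone called higher. The shares of 59.5% and 73.9% stand against 2.19% and 5.75% of all measured genes. At both ages the members had to pass the exclusions of the rule and the comparison set did not. Of the 538 other P7 barcodes, 382 passed both exclusions. The part of the exclusions in these shares was not tested.

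All 25 named higher genes had ratios above 1 at P7, and 21 of them were called. Thbs4 stood at 70.4 against 13.3 CPM (log2 ratio 2.41, interval 1.63 to 3.25), Fmod at 1849 against 473 CPM (1.97, 1.83 to 2.10), Comp at 347 against 73.3 CPM (2.24, 1.91 to 2.58), Prg4 at 4960 against 1813 CPM (1.45, 1.38 to 1.52) and Cyp26a1 at 392 against 101 CPM (1.95, 1.66 to 2.25). The 4 not called were Sdk2 (log2 ratio 0.98), Cdh13 (0.72), Angptl1 (0.68) and Cspg4 (0.50, interval -0.24 to 1.23). Of the 15 named lower genes 9 were measured and all 9 were lower, from Srpx (-1.34) to Cxcl2 (-3.57). The tendon, cartilage and bone list had 13 of 20 measured genes higher and none lower, which at this age included the cartilage genes Acan, Col2a1, Col9a1 and Col9a2.

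**Figure D5:**
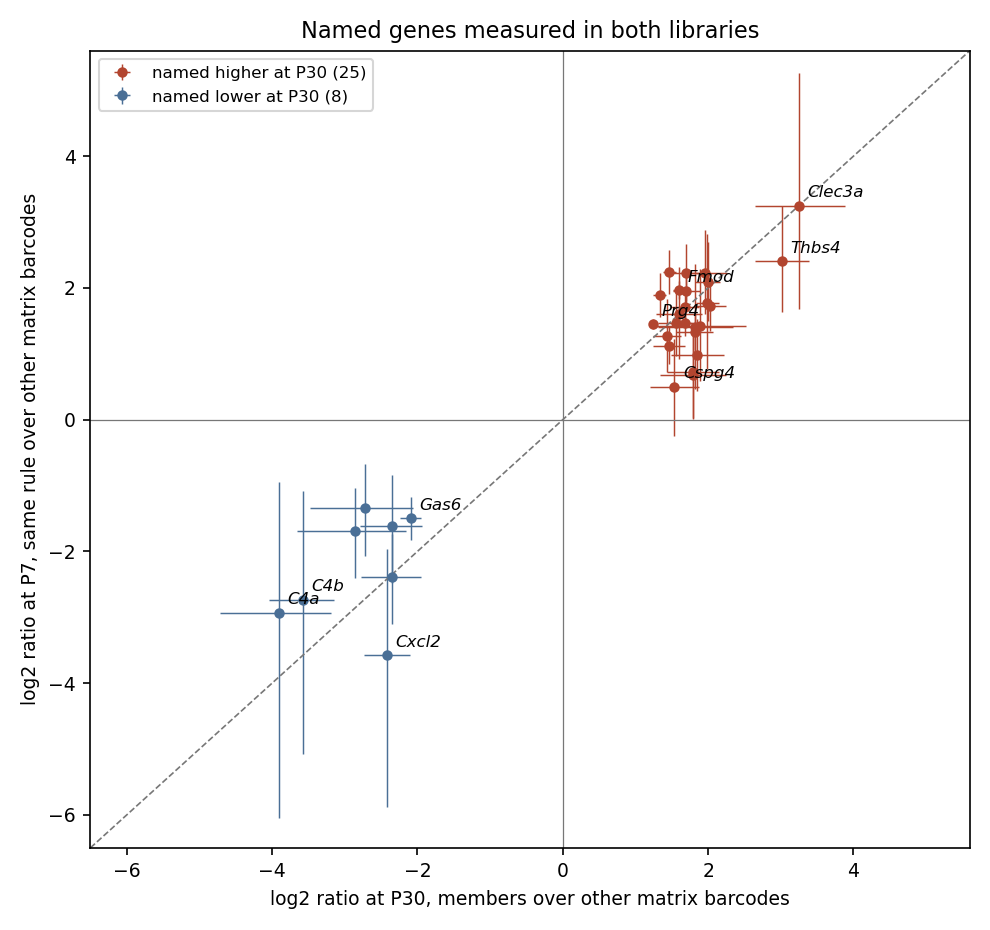
Log2 ratio of each named gene between the barcodes of the rule and the other matrix barcodes at P30 (horizontal axis) and at P7 (vertical axis), with 95% exact binomial intervals and the line of equal ratios. All 25 genes named as higher (red) lie above 0 at P7, and the 8 genes named as lower that are shown (blue) lie below 0.

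Between the ages, the 727 P30 barcodes were set beside the 184 at P7. Age and library cannot be told apart here. Of 6777 measured genes 410 were called higher at P30 (6.05%) and 933 lower (13.8%). The median log2 ratio over all measured genes was -0.21. Several genes that marked the set at both ages kept their level within counting error, such as Fgf9 (102 CPM at P30 and 101 CPM at P7), Fibin (726 and 711 CPM) and Scx (135 and 116 CPM).

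The tendon, cartilage and bone list split by age, with 7 of 22 measured genes higher and 6 lower at P30. The cartilage genes were lower, as Col9a1 stood at 46.9 against 500 CPM, Matn4 at 45.2 against 383 CPM, Acan at 7.88 against 53.2 CPM and Col2a1, with 3 UMIs at P30, at 1.24 against 26.6 CPM. Cilp was higher at 346 against 33.2 CPM, Cytl1 at 370 against 55.8 CPM, Comp at 838 against 347 CPM, Chad at 306 against 104 CPM and Mgp at 14568 against 4678 CPM. Bglap, with 3 UMIs at P7, stood at 44.4 against 3.99 CPM, a ratio of 11.1 (3.71 to 54.9). Fibrillar collagens were lower in 6 of 7 measured genes and elastic fibre genes in 9 of 16, with Eln at 6.64 against 112 CPM and Fbn2 at 26.1 against 595 CPM.

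Interferon and MHC genes, which serve antigen display and antiviral defence, were higher at the later age. Of 27 measured interferon and MHC class I genes, 23 were higher in the P30 barcodes and 1 lower, with H2-K1 at 174 against 7.97 CPM, H2-D1 at 392 against 30.6 CPM and B2m at 2140 against 512 CPM. Isg15 stood at 85.1 CPM at P30 and had no UMI at P7, a 21.3-fold ratio on a floor of 3 UMIs, which is not a lower bound. Of 12 measured chemokine and cytokine genes 7 were higher and none lower, with Cxcl1 at 339 against 22.6 CPM. Signs of RNA quality differed between the same sets, with Malat1 at 3.85% of UMIs at P30 and 1.17% at P7, mt-Rnr2 at 2.62% and 0.495%, mitochondrial coding RNA at 1.54% and 2.50%, and barcodes that end in N at 8.67% and 26.1%. Their part in these differences was not tested. The Npy Tppp3 barcodes at P30 were low in chemokine transcripts beside their neighbours of the same age and high beside the barcodes of the same rule at P7. The low level was less marked beside the P30 barcodes that passed both exclusions, as given above.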

How the data were processed

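Drop-seq libraries of C57BL/6J mouse heart valve cells at P7 and P30 were analysed, 1 per age. The deposited tables hold UMI counts per gene and barcode as the authors made them, not normalized. The deposited scaled tables equal these counts per 10000 UMIs and were not used. The submitters' processing notes name the build mm10 and Bowtie2 2.2.7. The counting program was not given in the sources used. UMIs were summed over the barcodes of a set and given as CPM with exact Poisson intervals. Intervals of ratios are exact binomial and those of shares Clopper-Pearson, each covering 95% and counting error only. Genes without a UMI in 1 set were set at 3 UMIs. Thinned shares are expectations over 500 UMIs drawn from each barcode. Genes of the rule were left out of all calls. Named were the 25 higher genes with the highest lower bound of the ratio, the 15 lower ones with the lowest upper bound and 8 each way against the 2 other sets, leaving out mitochondrial, ribosomal, haemoglobin, Gm and Rik genes and genes with over 25% of UMIs in 1 barcode, plus called members of gene lists and members whose role is explained. The members and lists were chosen with earlier results of these data known. The scripts (Python 3.11.15, numpy 2.4.6, scipy 1.17.1, pandas 2.3.3, matplotlib 3.10.9) were tested on simulated data. Alternatives covered the weighting of barcodes, depth, the rule and the minimum level. A gene among the 15 named as lower, and some markers, are counted but not reported here.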

Additional observations from a re-analysis of the deposited data

Results flagged for a closer look

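Of the genes called at both ages between the barcodes of the rule and the other matrix barcodes, 12 went in opposite directions at P30 and P7, and the difference between the ages was not tested. Cell division genes were higher in the Npy Tppp3 barcodes at P30 and lower in the barcodes of the same rule at P7, with these log2 ratios. They were Cdc20 (1.35 at P30 and -3.46 at P7), Cenpe (1.49 at P30 and -1.77 at P7), Ckap2 (1.02 at P30 and -1.61 at P7), Ckap2l (1.04 at P30 and -1.61 at P7). They were also Kif23 (1.25 at P30 and -1.21 at P7), Mki67 (1.02 at P30 and -1.13 at P7), Nusap1 (1.09 at P30 and -1.42 at P7), Prc1 (1.15 at P30 and -1.71 at P7). The last were Spc25 (1.68 at P30 and -1.28 at P7), Stmn1 (1.27 at P30 and -1.31 at P7) and Ube2c (1.48 at P30 and -1.88 at P7). At P30 most of these UMIs came from 14 members that were picked, after the values were seen, for at least 10 cell cycle UMIs, as Prc1 had 139 UMIs with them and 5 without, and Ube2c 66 and 0. At P7 such barcodes were 5.98% of 184 (3.02% to 10.4%) and 7.43% of 538 (5.36% to 9.99%).

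Ackr4, a scavenging receptor of chemokines, went the other way, with a log2 ratio of -1.23 at P30 and 1.09 at P7. It stood at 21.2 against 49.7 CPM at P30 and at 38.5 against 18.2 CPM at P7.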

How the results depend on the processing

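With 1 library per age, no replicate error was measured, and intervals cover counting error only. The 87 higher and 131 lower genes became 50 and 67 when the other barcodes had to pass both exclusions, 253 and 493 with 10 UMIs and no CPM minimum, and 57 and 61 with at least 50 CPM and 25 UMIs. The remaining 10 alternatives and 3 chosen after seeing the data gave 76 to 115 higher and 110 to 163 lower genes. They included equal weight for 10 bins of depth (83 and 135) and no barcodes with 3 or more cell cycle UMIs (76 and 163). The 44 genes also higher at P7 were 41 to 55 under 3 alternatives. None of the 40 named genes changed sign under 3 alternatives, which were mean CPM over barcodes, equal weight for bins of depth and other barcodes passing both exclusions. Thinning each barcode to 500 UMIs used the same values as mean CPM over barcodes, so it was not a separate check. Of the 27 list medians, 7 near 0 changed sign under at least 1 of 4 alternatives (Wnt, adhesion, contractile, imprinted, matrix protease, other collagen and peptide processing genes). Against the barcodes that passed both exclusions 9 named genes fell under 2-fold. Depth limits genes near 20 CPM. No paired analysis was possible because each age has 1 library.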

Other observations

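Of the genes called higher, 6 fell outside the named genes because a single member held over 25% of their UMIs. One barcode gave 95.8% of 118 Cenpo UMIs, 93.7% of 174 UMIs of the pigment gene Dct, 53.0% of 66 Rn7sk UMIs, 36.5% of the Cenpe UMIs, 32.1% of 165 Spp1 UMIs and 27.8% of 54 Cdc20 UMIs. The log2 ratios over the other matrix barcodes of Cenpo (4.30) and Dct (2.93) thus rest almost wholly on 1 barcode each, and that of Spp1 (4.04) does so in part. The melanocyte marker sum of the members (98.8 against 40.0 CPM) rests on the same Dct UMIs. Uchl1, a ubiquitin hydrolase abundant in neurons, was higher in the members at both ages, at 76.3 against 33.4 CPM at P30 and 51.8 against 16.8 CPM at P7, with Th and Dbh at 0 in the members of both libraries.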
